A study of Homo sapiens with 17 samples.

Results

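The genes described here are the solute carrier (SLC) transporters that were measurably expressed in TRAIL-treated MDA-MB-231 breast cancer cells. A gene was taken as a member when its symbol was SLC, a family number, the letter A and a member number, and when its deposited count averaged at least 100 over the 17 libraries. Of 335 such symbols among 58870 annotated entries, 140 met the count minimum, from 39 families, while 146 had a mean above 0 but below it and 49 were at 0. Because the rule used the mean count, a member's level is a description and not a finding. Just inside the minimum stood SLC6A8, SLC22A4 and SLC27A3 with mean counts of 102.1, 103.5 and 103.6, and just outside it SLC30A4, SLC10A7 and SLC1A3 with 97.2, 96.9 and 96.4.

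MDA-MB-231 is an established human line of triple-negative breast cancer, labelled here as mesenchymal and basal B, for which the labels give no genetic change. The cells, grown in RPMI medium with serum and antibiotic, received TRAIL, a death ligand of the tumour necrosis factor family that also signals to NF-kappaB, at a dose of 45 nM that the labels call suboptimal. Poly(A) RNA was sequenced at 0, 3, 6, 12 and 24 h from 3 libraries each and at 1 h from 2, and every library, 0 h included, carries the label of TRAIL treatment. No untreated library of a later time was used, so hours with TRAIL and hours of handling or culture cannot be told apart, and the labels do not say whether the replicates were separate cultures, so p-values measure only the spread between these libraries.

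Solute carriers move amino acids, sugars, nucleosides, vitamins, metals and inorganic ions across the plasma membrane and the membranes of organelles, mostly as facilitators, exchangers or transporters coupled to an ion gradient. Many are set at the level of transcription or mRNA stability by the cell's nutrient state, as when amino acid shortage acts through ATF4 or zinc through MTF1, and others answer to growth factors and cytokines. Breast cancer cells rely on glucose importers, on the lactate exporter SLC16A3 and on the amino acid transporters SLC7A5, SLC3A2 and SLC1A5.

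The libraries held 13731520 to 19234924 counts, of which the 140 members took 0.894 to 1.056%. The share of counts from mitochondrially encoded genes differed between times and between replicates. It was 5.53 to 8.37% at 0 h, 7.65 to 9.71% at 1 h and 7.99 to 8.97% at 3 h. Later shares were 3.97 to 5.45% at 6 h, 5.01 to 6.8% at 12 h and 3.66 to 4.14% at 24 h. Replicates 2 and 3 at 6 h and at 24 h were closer to each other than any other pair of a group: their chi-square per degree of freedom over genes, which is 1 for counting error alone, was 1.55 and 1.67, against 4.02 to 16.13 for the other pairs. Mesenchymal markers were high at 0 h, with VIM at 3360 ± 108 CPM (counts scaled to the library total; SD, n = 3) and CD44 at 1320 ± 43.6, the epithelial cadherin CDH1 was at 0.477 ± 0.0722, and the receptors ESR1 and PGR were at 0.0415 and 0.0207 CPM. EPCAM at 17.8 ± 1.37 and ERBB2 at 64.5 ± 3.12 CPM were present. Of 3 markers of other cell types, PTPRC of leukocytes was at 0.083 CPM, with 0 to 5 counts a library, and the other two changed with time. COL1A1, the collagen of fibroblasts, was at 9.05 ± 1.28 CPM at 0 h, rose by 0.70 ± 0.13 at 3 h (edgeR adjusted p = 0.00138) and 0.53 ± 0.13 at 6 h (adjusted p = 0.00576), and fell by 0.53 ± 0.14 at 24 h (adjusted p = 0.00835). PECAM1 of endothelium went from 1.43 ± 0.449 CPM at 0 h to 3.21 ± 0.667 at 24 h, a log2 rise of 1.17 ± 0.27 (adjusted p = 0.00258). Their part in the members' changes was not tested. In such bulk RNA, fewer cells of a kind and less RNA per cell cannot be told apart.

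Levels per length are in TPM, counts divided by transcript length and then scaled to the library's total of these values. Highest at 0 h was SLC25A3, the mitochondrial phosphate carrier, with 807 ± 18.7 TPM (SD, n = 3). Below it stood SLC25A5, an ADP/ATP exchanger of the inner mitochondrial membrane, with 551 ± 24.6. SLC16A3, which exports lactate, followed with 404 ± 34.4 and SLC2A1, the main glucose importer of the plasma membrane, with 343 ± 33.7; the ranges of mean and SD of these last 2 overlapped. SLC1A5 at 236, SLC3A2 at 225, SLC25A39 at 219 and SLC39A7 at 201 came next. From here on a level is in CPM, a change is a log2 fold change with its standard error, and a gene was called when its adjusted p in edgeR's quasi-likelihood test, adjusted over all 15365 genes tested, was below 0.05.

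Over the time course 113 of the 140 members (80.7%) changed, beside 64.2% of all genes tested and 78.2% of the 10484 genes with a mean count of at least 100, so the share of transporters that changed was near that of equally abundant genes. Most changes were small. Across the mean levels at the 6 times, the median member spanned 0.47 on the log2 scale, beside 0.423 for genes with a mean count of at least 100. A span of at least 1 was seen for 3 members (2.14%), among them SLC19A1 described below, beside 4.1% of those genes. No member was called with a change of 2-fold or more against 0 h or between neighbouring times. Other pairs of times, such as 24 h and 3 h, were not compared. At 1 h edgeR called 0 members in either direction, beside 0.260% of all genes higher and 0.0521% lower. Of the 140 members 5 had an unadjusted edgeR p below 0.05, a share no larger than that cutoff. DESeq2 also called 0. At 3 h 16 members were higher and 21 lower than at 0 h, beside 9.04% higher and 8.71% lower among all genes. At 6 h 36 were higher and 19 lower, beside 16.9% and 13.2%. At 12 h 8 were higher and 11 lower, beside 5.96% and 6.48%, and at 24 h 31 were higher and 29 lower, beside 18% and 17.1%. All of these share the 0 h libraries. Between neighbouring times, 11 rose and 6 fell from 1 h to 3 h, beside 3.17% and 2.56%, 13 rose and 31 fell from 6 h to 12 h, beside 8.70% and 11.9%, and 11 rose and 10 fell from 12 h to 24 h, beside 6.42% and 5.60%. Beside genes with a mean count of at least 100, the members' shares were near in some comparisons and apart in others. Higher at 6 h were 25.7% of the members and 23.5% of these genes, and at 24 h 22.1% and 23.6%. From 1 h to 3 h 7.86% of the members rose beside 4.22%, and from 6 h to 12 h 22.1% fell beside 16.3%. From 3 h to 6 h 15% fell beside 23.3%. Lower at 3 h were 15% of the members beside 11% of these genes. These differences in share were not tested.

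**Figure D1:**
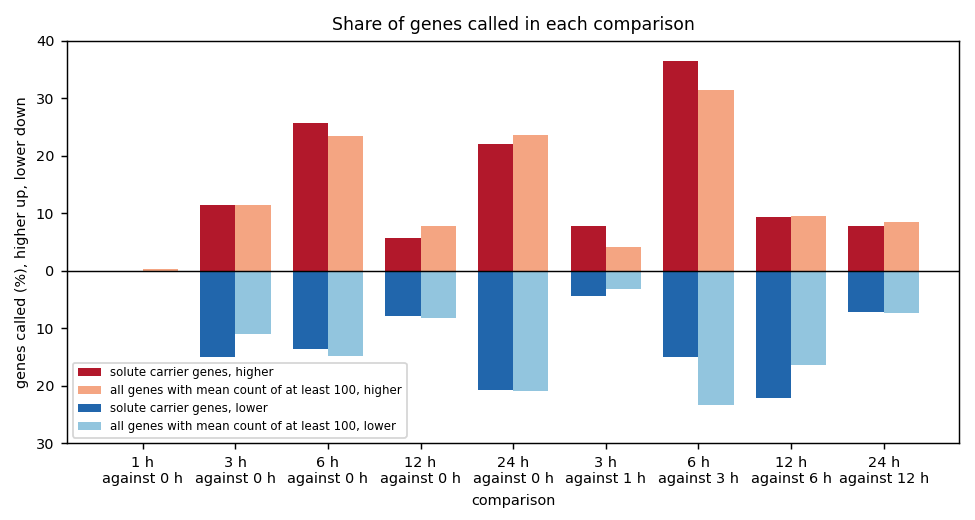
Share of the 140 solute carrier genes (dark bars) and of the 10484 genes with a mean count of at least 100 (light bars) called higher (upward) and lower (downward) in each comparison, in percent. The members stand at 11.4% higher and 15% lower at 3 h and at 36.4% higher and 15% lower between 3 h and 6 h, where the abundant genes stand at 31.5% and 23.3%.

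The step from 3 h to 6 h moved more members than any comparison against 0 h, and the same held for all genes tested. Of the members 51 rose and 21 fell, beside 22.9% higher and 20.3% lower among all genes tested. In either direction 51.4% of the members were called, beside 54.7% of the genes with a mean count of at least 100. Among the 113 members that changed over time, the lowest mean was at 3 h for 47 (41.6%), beside 30.9% of the 8198 genes of mean count at least 100 that changed, and the highest was at 24 h for 36 (31.9%), beside 26.9%. Fitted changes also shifted when each library's trend with transcript length and GC content was removed. For single members, calls lost and called values moved by over 1.5 times are given below for a fit without these trends. With them removed, 13.2% of all genes were higher (3 h) and 12.6% lower. The same pair of shares was 16.3% to 12.2% after 6 h, 8.18% to 7.99% after 12 h, 17.3% to 16.5% after 24 h, and 21% to 18.3% over the step from 3 h to 6 h. Counts of calls depended on single libraries. The 21 members lower at 3 h became 10 without replicate 2 at 0 h and 11 without replicate 3. The 36 higher at 6 h became 22 without replicate 1 at 0 h and 23 without replicate 2 at 6 h, and the 19 lower became 12 without replicate 3 at 6 h. The 8 higher at 12 h became 3 without replicate 1 at 0 h, 5 without replicate 2 or replicate 3 at 0 h, 3 without replicate 2 at 12 h and 4 without replicate 3, and the 11 lower became 6 without replicate 1 or replicate 2 at 0 h and 4 without replicate 2 at 12 h. The 31 higher at 24 h became 19 without replicate 1 at 0 h, and the 29 lower became 11 and 17 without replicates 1 and 2 at 0 h, and 13 and 16 without replicates 2 and 3 at 24 h. The 21 lower between 3 h and 6 h became 13 without replicate 2 at 3 h and 13 without replicate 3 at 6 h. Between 1 h and 3 h the 11 that rose became 2 and 4 without replicates 1 and 2 at 1 h, and 7 without replicate 1 or 2 at 3 h. The 6 that fell there became 0 and 3 without the same 1 h replicates and 2 without replicate 1 at 3 h. Between 6 h and 12 h the 13 that rose became 7 and 5 without replicates 2 and 3 at 6 h, and 7 and 8 without those at 12 h. The 31 that fell became 18 without replicate 2 at 6 h. Between 12 h and 24 h the 11 that rose became 5 and 7 without replicates 1 and 3 at 12 h, and 20, 5 and 6 without replicates 1, 2 and 3 at 24 h. The 10 that fell became 5 without replicate 1 at 12 h, and 6 and 5 without replicates 2 and 3 at 24 h. With library size as the only scaling 13 members were higher and 40 lower at 3 h. The split became 8 to 7 at 12 h and 47 to 12 at 24 h, and for the step from 3 h to 6 h it became 66 to 13, and for that from 12 h to 24 h 12 to 5. With replicates 2 and 3 averaged at 6 h and 24 h, 20 were higher at 6 h, 4 were higher at 12 h, and 18 were higher and 14 lower at 24 h. That averaging also ended, among the calls given below, those of SLC16A3 at 6 h and 24 h, of SLC39A6 and SLC29A1 at 6 h, of SLC43A1 at 12 h, and of SLC2A1, SLC39A10, SLC7A2, SLC26A6, SLC35A5 and SLC38A2 at 24 h.

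**Figure D2:**
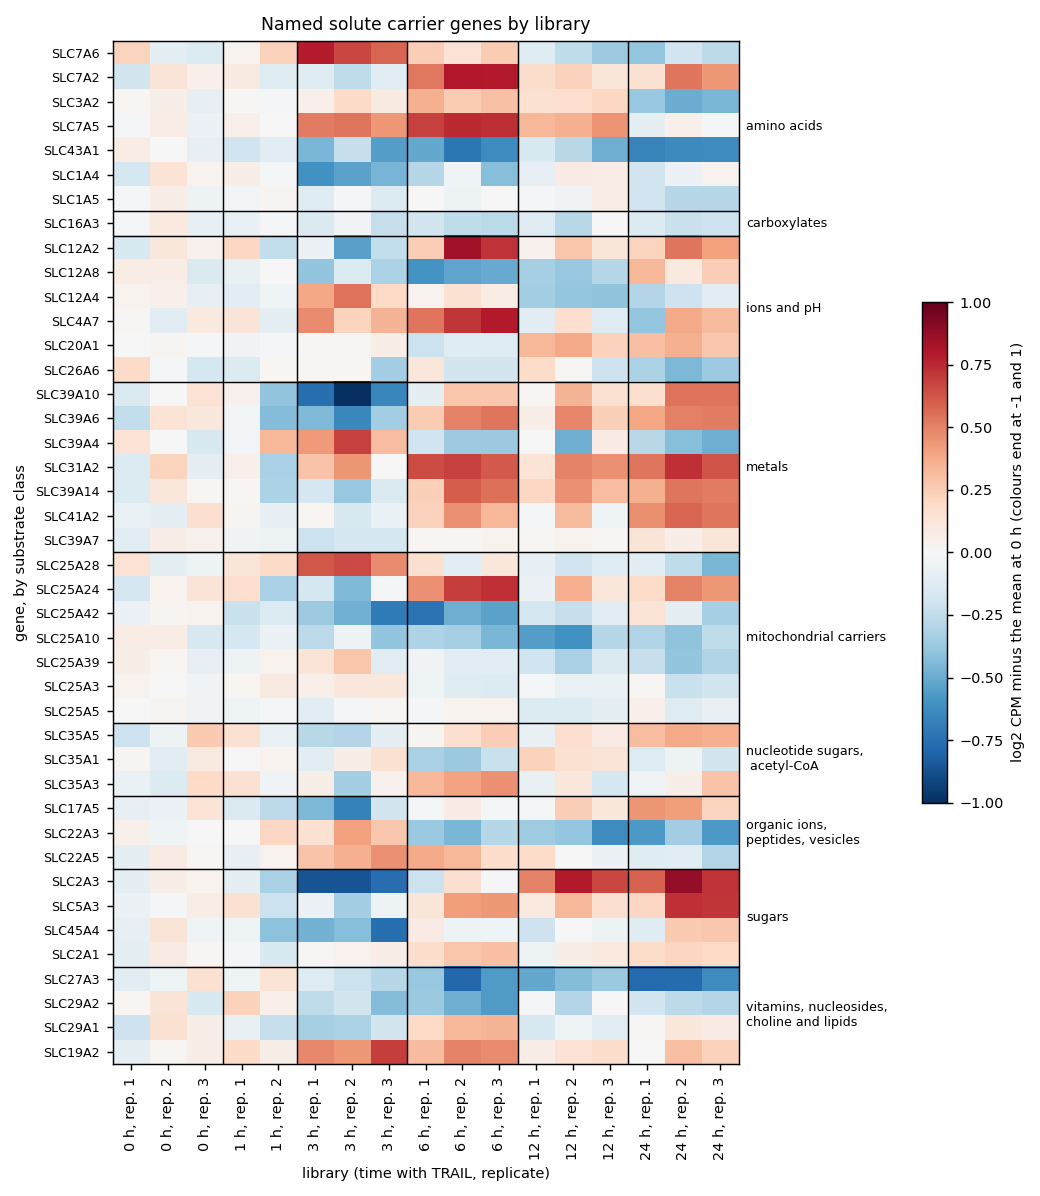
The 42 solute carrier genes shown of those named by rule (rows, grouped by substrate class) in the 17 libraries (columns), coloured by log2 CPM minus the gene's mean at 0 h. SLC2A3 and SLC39A10 are darkest blue at 3 h, SLC7A5 is red from 3 h to 12 h, and SLC3A2 turns from red at 6 h to blue at 24 h.

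SLC2A3, the high-affinity glucose transporter GLUT3, had the widest range of mean levels among the members that changed over the times together. The 0 h libraries gave 18.8, 20.9 and 20.5 CPM and the 1 h libraries 18.7 and 16. Those of 3 h gave 11, 11 and 11.8, and those of 6 h 17.3, 22.4 and 19.9. Later values were 28.3, 34.7 and 31.8 (12 h) and 30.2, 36.9 and 33 (24 h). All 3 libraries at 3 h lay below every other library, and all libraries at 12 h and 24 h lay above every earlier one. Against 0 h it fell by 0.83 ± 0.11 at 3 h (adjusted p = 5.34e-05) and rose by 0.66 ± 0.10 at 12 h (adjusted p = 0.000306) and by 0.74 ± 0.10 at 24 h (adjusted p = 3.48e-05). From 3 h to 6 h it rose by 0.82 ± 0.11 and from 6 h to 12 h by 0.68 ± 0.10. These calls were made under every alternative processing and without each library in turn.

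Substrate classes were assigned by family number, so a class holds whole families, and members with other substrates were not set apart. Of the 13 members of the sugar carrier families, 1 was higher and 3 lower at 3 h, and 4 were higher and 3 lower at 24 h. The shares of all genes were 9.04% and 8.71% at the first time and 18% and 17.1% at the second. SLC2A1, or GLUT1, started from 434, 491 and 467 CPM in the 0 h libraries. Those of 6 h held 524, 563 and 570, and those of 24 h held 525, 537 and 531. It was higher by 0.25 ± 0.06 at 6 h (adjusted p = 0.00393), with no overlap between the groups, and by 0.19 ± 0.06 at 24 h (adjusted p = 0.0159), a call lost without replicate 1 at 0 h or replicate 2 at 24 h. SLC5A3, which takes up the osmolyte myo-inositol with sodium, stood at 33, 33.8 and 36.2 CPM at 0 h and at 39.7, 56.8 and 56.4 at 24 h, a rise of 0.57 ± 0.13 (adjusted p = 0.00353; 0.26 with length and GC trends removed) in which every 24 h library lay above every 0 h one. None of its counts were whole numbers, which in RSEM output means that reads were divided between genes. The gene overlaps MRPS6 on the same strand over 32693 bases. SLC45A4 fell by 0.55 ± 0.14 at 3 h (adjusted p = 0.0105), a call lost without replicate 2 at 0 h. SLC37A2, a sugar phosphate exchanger of the endoplasmic reticulum that is named here after its values were seen, was at 74.4, 84.2 and 78 CPM at 0 h and at 104, 114 and 110 at 24 h, a rise of 0.48 ± 0.06 (adjusted p = 1.37e-05). SLC16A3, the only member of the carboxylate class, was lower by 0.24 ± 0.07 at 6 h (adjusted p = 0.0147) and by 0.19 ± 0.07 at 24 h (adjusted p = 0.0384). Both calls were lost when trends with transcript length and GC content were removed, the second with a change of sign to 0.01. The 6 h call was also lost without replicate 2 at 0 h and without replicate 2 or 3 at 6 h. The 24 h call was lost with library size as the only scaling, without replicate 1 or 2 at 0 h and without replicate 2 or 3 at 24 h.

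**Figure D3:**
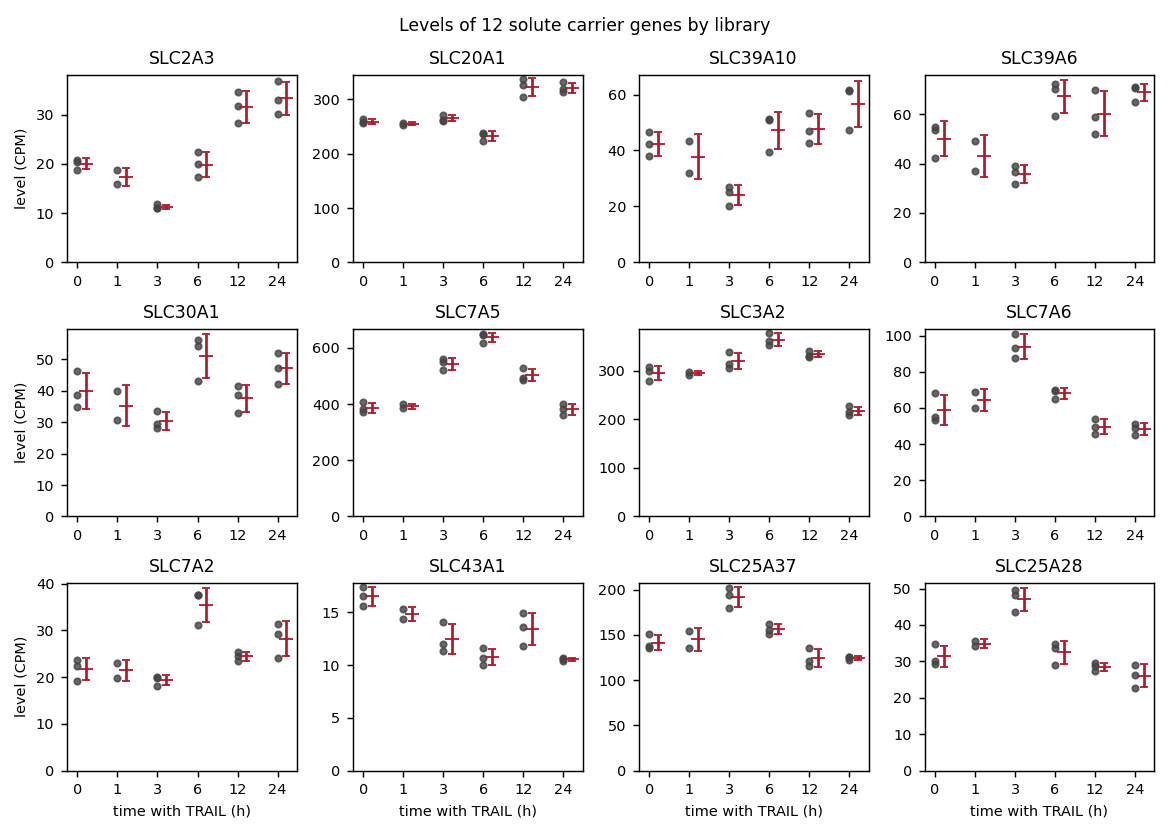
Levels in CPM (vertical axis, from 0) of 12 solute carrier genes at each time with TRAIL (horizontal axis, hours, evenly spaced), with a grey point per library and a red bar for the mean and SD (n = 3, at 1 h n = 2). SLC2A3 and the zinc transporters SLC39A10, SLC39A6 and SLC30A1 are lowest at 3 h, SLC7A6, SLC25A37 and SLC25A28 highest at 3 h, and SLC7A5, SLC3A2 and SLC7A2 highest at 6 h.

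Metal carriers made up 23 members. Of these, 3 were higher and 6 lower at 3 h, whereas 8 were higher and 1 lower at 6 h. By 12 h 2 were higher and 0 lower, and by 24 h 10 were higher against 3 lower. From 3 h to 6 h 13 rose and 3 fell. Among all genes 9.04% were higher against 8.71% lower (3 h), 16.9% against 13.2% (6 h), 5.96% against 6.48% (12 h), 18% against 17.1% (24 h) and 22.9% against 20.3% (3 h to 6 h). Removal of length and GC trends gave the metal carriers 3 higher against 9 lower (3 h), 4 against 2 (6 h), 2 against 3 (12 h), 9 against 1 (24 h) and 10 against 2 (3 h to 6 h). Their median at 6 h went from 0.14 to 0.02. Among them the ZIP family (SLC39), whose members bring zinc and related metals into the cytosol, held 11 genes, and the ZnT family (SLC30), whose members export zinc or load it into organelles, held 5. All 5 ZnT members rose from 3 h to 6 h, SLC30A1 by 0.75 ± 0.13 (adjusted p = 0.000306), SLC30A6 by 0.54, SLC30A7 by 0.47, SLC30A9 by 0.46 and SLC30A5 by 0.19; the last 4 fall outside the naming rule and were chosen for their family. These rises were smaller with the trends removed, at 0.44, 0.24, 0.19 and 0.14 for the first 4, while SLC30A5 was not called there (0.08, adjusted p = 0.268). The SLC30A5 call was also lost with no filter on low counts, with only the 2 groups compared, with averaged replicates, and without replicate 1 or 2 at 3 h or replicate 2 or 3 at 6 h. Of the 11 ZIP members 4 rose and 3 fell over the same step.

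SLC39A10 imports zinc at the plasma membrane. At 0 h it measured 38.1, 42.4 and 46.6 CPM, and after 1 h 43.5 and 32.1. After 3 h it measured 25.1, 20 and 26.8, then 39.6, 51.1 and 50.8 by 6 h. The 12 h libraries held 42.7, 53.4 and 47 and the 24 h libraries 47.2, 61.5 and 61.4. The 3 h libraries were the lowest of the series and overlapped no other time. It fell by 0.82 ± 0.15 at 3 h (adjusted p = 0.00194). Between 3 h and 6 h it rose by 0.97 ± 0.15 (adjusted p = 0.000175). Both calls held under every alternative and without each library. With length and GC trends removed the rise was 0.66. Its higher level at 24 h (0.42 ± 0.14, adjusted p = 0.03; 0.20 with the trends removed) was lost without replicate 1 or 2 at 0 h and without replicate 2 or 3 at 24 h.

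SLC39A6 forms a complex with SLC39A10. Its CPM were 42.1, 54.9 and 53.5 in the 0 h libraries and 49 and 36.9 after 1 h. The 3 h libraries followed with 36.6, 31.8 and 39.1 and the 6 h libraries with 59.5, 70.1 and 72.1. At 12 h the values were 52.2, 69.9 and 58.8, and by 24 h 65, 70.6 and 70.9. Again 3 h was low and 6 h high, without overlap between the 2 times. The rise between them was 0.91 ± 0.13 (adjusted p = 9.19e-05), and 0.78 with the trends removed. Its fall of 0.48 ± 0.13 at 3 h (adjusted p = 0.0185) was not called without replicate 2 or 3 at 0 h or replicate 2 at 3 h. Its rise of 0.42 ± 0.13 at 6 h (adjusted p = 0.0178) was not called without replicate 1 at 0 h or replicate 2 or 3 at 6 h. At 24 h it rose by 0.46 ± 0.13 (adjusted p = 0.0101), a call lost without replicate 1 at 0 h.

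SLC30A1, the zinc exporter of the plasma membrane, falls outside the naming rule and is given because of its role. It stood at 29.4, 28 and 33.7 CPM at 3 h and at 43.2, 56.2 and 54.3 at 6 h, with no overlap. The 0 h libraries, at 35, 38.6 and 46.2, lay above those at 3 h and overlapped those at 6 h. SLC39A4, a zinc importer best known from the intestine, moved in the other direction. From 26.9, 24.4 and 21.8 CPM in the 0 h libraries it went to 32.6, 39 and 30 in those of 3 h, and to 21.2, 18.9 and 18.8 in those of 6 h. It fell by 0.79 ± 0.14 from 3 h to 6 h (adjusted p = 0.000271). Its higher level at 3 h (0.47 ± 0.13, adjusted p = 0.0208) was not called without replicate 2 or 3 at 0 h or replicate 2 at 3 h. SLC39A14, a carrier of zinc, iron and manganese that inflammatory cytokines induce in liver, gave 54.8, 65.4 and 61.2 CPM in the 0 h libraries. It gave 71.1, 91.9 and 88.4 in those of 6 h and 77.3, 87.2 and 86.3 in those of 24 h. It rose by 0.47 ± 0.11 at 6 h (adjusted p = 0.00306) and by 0.47 ± 0.11 at 24 h (adjusted p = 0.00259), each time without overlap. SLC39A8, a related carrier that NF-kappaB is known to induce in other cells and that is named for this role outside the rule, was at 38.4, 38.1 and 42.7 CPM at 0 h and 33.8, 32.9 and 37.9 at 3 h, and was not called against 0 h at any time. With the trends removed it was lower by 0.17 at 6 h (adjusted p = 0.0305), 0.19 at 12 h (adjusted p = 0.0299) and 0.19 at 24 h (adjusted p = 0.0171).

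Of the copper carriers, SLC31A2 of late endosomes rose from 12.4, 15.9 and 12.8 CPM at 0 h to 21.4, 21.9 and 20.8 at 6 h (0.64 ± 0.12, adjusted p = 0.000913) and 19.7, 22.6 and 21 at 24 h (0.62 ± 0.12, adjusted p = 0.000973). The groups did not overlap. Its counts were whole in no library, and it lies across FKBP15 on the opposite strand. Of the magnesium carriers, SLC41A2 rose by 0.52 ± 0.10 at 24 h (adjusted p = 0.000704), from 14.5, 14.3 and 17 CPM to 21, 22.8 and 22.1. SLC41A1, a sodium-magnesium exchanger outside the naming rule that was chosen after its values were seen, gave 45.8, 48.5 and 47.4 CPM in the 0 h libraries and 62.8, 59.6 and 60.4 in those of 3 h. It gave 62.2, 68.7 and 70 in those of 6 h and 56.1, 62.7 and 62.9 in those of 24 h. It rose by 0.37 ± 0.07 at 3 h (adjusted p = 0.00138), 0.51 ± 0.07 at 6 h (adjusted p = 3.86e-05) and 0.36 ± 0.07 at 24 h (adjusted p = 0.000746; 0.22 with the trends removed), all above the 0 h libraries.

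The stretches before the starts of 3 zinc transporters that rose from 3 h to 6 h, and of the amino acid carrier pair described next, are shown so that the letters shared by members that rose from 3 h to 6 h can be seen. Each is 250 bases upstream of a RefSeq transcript start on GRCh38.p14, written 5′ to 3′ on the gene's strand, and capitals mark a core of the metal response element, which MTF1 binds, searched as TGCACNC or TGCGCNC on both strands. RefSeq windows were matched for 113 of the 140 members by symbol, 173 windows in all.
SLC30A1 (chr1:211579162-211579411, minus strand): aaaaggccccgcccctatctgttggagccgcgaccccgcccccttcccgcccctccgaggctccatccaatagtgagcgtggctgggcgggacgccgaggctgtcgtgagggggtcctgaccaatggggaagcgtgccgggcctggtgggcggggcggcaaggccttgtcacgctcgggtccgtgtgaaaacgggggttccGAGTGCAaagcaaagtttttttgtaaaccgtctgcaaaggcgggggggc
SLC39A6 (chr18:36129341-36129590, minus strand): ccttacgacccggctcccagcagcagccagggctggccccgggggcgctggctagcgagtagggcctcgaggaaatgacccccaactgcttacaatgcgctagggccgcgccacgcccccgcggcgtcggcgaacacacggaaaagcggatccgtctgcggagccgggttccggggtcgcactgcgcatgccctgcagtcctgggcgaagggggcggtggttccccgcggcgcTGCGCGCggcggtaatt
SLC39A10 (chr2:195656708-195656957, plus strand, 1 of 2 starts): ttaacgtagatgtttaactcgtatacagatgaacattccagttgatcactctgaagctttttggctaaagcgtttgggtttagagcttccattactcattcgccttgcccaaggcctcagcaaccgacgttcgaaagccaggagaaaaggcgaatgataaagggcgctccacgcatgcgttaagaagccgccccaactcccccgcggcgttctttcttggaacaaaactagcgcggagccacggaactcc
SLC7A5 (chr16:87869508-87869757, minus strand): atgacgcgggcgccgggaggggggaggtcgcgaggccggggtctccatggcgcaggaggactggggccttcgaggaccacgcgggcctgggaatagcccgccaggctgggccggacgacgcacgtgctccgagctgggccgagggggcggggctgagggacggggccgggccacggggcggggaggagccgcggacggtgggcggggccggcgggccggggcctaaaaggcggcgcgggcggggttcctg
SLC3A2 (chr11:62881449-62881698, plus strand, 1 of 3 starts): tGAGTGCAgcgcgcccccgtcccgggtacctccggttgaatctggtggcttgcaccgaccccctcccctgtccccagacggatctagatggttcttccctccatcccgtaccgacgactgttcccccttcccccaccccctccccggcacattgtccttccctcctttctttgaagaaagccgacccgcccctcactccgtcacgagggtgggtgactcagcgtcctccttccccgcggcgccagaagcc

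A metal response core stood once in the SLC30A1, SLC39A6 and SLC3A2 windows and not in those of SLC39A10 and SLC7A5. It was present in 32.37% of the members' windows and in 24.83% of all 35116 windows, a common match of so few letters. The NF-kappaB motif, searched on both strands as GGGA, any 2 bases and TTCC, was in 1.16% of the members' windows, those of SLC12A9 and SLC49A4, beside 1.4% of all windows, and the C/EBP-ATF element TGATGNAA, through which ATF4 acts, was in 1.16%, those of SLC1A5 and SLC25A11, beside 3.14%. None of the 5 windows shown held either. A match is only a run of letters in these 250 bases.

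The amino acid carrier families made up 22 members, among them SLC7A5, whose 6 h call had the smallest adjusted p of any member there. Of the 22, 3 were higher and 4 lower at 3 h, whereas 7 were higher and 2 lower at 6 h. Both directions held 2 members at 12 h, and by 24 h 5 were higher against 6 lower. All genes stood at 9.04% against 8.71% (3 h), 16.9% against 13.2% (6 h), 5.96% against 6.48% (12 h) and 18% against 17.1% (24 h). Once length and GC trends were removed the class had 5 higher against 5 lower (3 h), 6 against 2 (6 h), 4 against 3 (12 h) and 3 against 7 (24 h), and its 6 h median went from 0.16 to 0.07. SLC7A5, or LAT1, exchanges glutamine for leucine and other large neutral amino acids and works only when bound to the heavy chain SLC3A2. At 0 h it measured 381, 407 and 371 CPM, and after 1 h 399 and 385. After 3 h it measured 549, 560 and 520, then 619, 649 and 645 by 6 h. The 12 h libraries held 487, 493 and 528 and the 24 h libraries 362, 399 and 382. All libraries at 3, 6 and 12 h lay above all those at 0, 1 and 24 h. Against 0 h it rose by 0.49 ± 0.06 at 3 h (adjusted p = 6.49e-06), 0.72 ± 0.06 at 6 h (adjusted p = 3.8e-08) and 0.38 ± 0.06 at 12 h (adjusted p = 0.000247), and its value at 24 h was -0.02 ± 0.06 (adjusted p = 0.81). From 1 h to 3 h it rose by 0.47 ± 0.06, the only member called over that step under every alternative and without each library. Its counts were whole in no library, so its values are uncertain to the extent that reads were shared with other genes.

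SLC3A2, the partner chain, was highest at 6 h and lowest at 24 h. The 0 h libraries gave 300, 308 and 279 CPM and the 1 h libraries 298 and 292. Those of 3 h gave 306, 338 and 314, and those of 6 h 378, 352 and 362. Later values were 329, 331 and 341 (12 h) and 227, 209 and 215 (24 h). The 6 h libraries lay above those of every other time and the 24 h libraries below them. It rose by 0.30 ± 0.06 at 6 h (adjusted p = 0.000607) and fell by 0.44 ± 0.06 at 24 h (adjusted p = 1.56e-05). Over the step from 12 h to 24 h it fell by 0.62 ± 0.06 (adjusted p = 3.63e-06), while SLC7A5 fell by 0.40 ± 0.06 to levels that overlapped those at 0 h. At 3 h, where SLC7A5 had risen, SLC3A2 stood at 0.11 ± 0.06 (adjusted p = 0.168), and with length and GC trends removed at 0.12 (adjusted p = 0.0241).

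SLC7A6, another light chain that pairs with SLC3A2 and exchanges basic for neutral amino acids, peaked at 3 h. Its CPM were 68.4, 55.1 and 53.4 in the 0 h libraries and 60.1 and 68.7 after 1 h. The 3 h libraries followed with 101, 93.3 and 87.5 and the 6 h libraries with 69.6, 64.7 and 70. At 12 h the values were 53.9, 49.2 and 45.5, and by 24 h 44.9, 51.3 and 48.8. The 3 h libraries lay above all others. It rose by 0.67 ± 0.09 at 3 h (adjusted p = 3.78e-05) and fell by 0.46 ± 0.09 from 3 h to 6 h (adjusted p = 0.000463; -0.70 with length and GC trends removed). At 24 h it was lower than at 0 h by 0.29 ± 0.09 (adjusted p = 0.0202; -0.51 with the trends removed), a call lost with library size as the only scaling, without replicate 1 at 0 h and without replicate 1 at 24 h. SLC7A6 overlaps SLC7A6OS on the opposite strand over 17321 bases, whether strand was used in counting is not given in the sources used here, and its counts were whole in no library. SLC7A2, a carrier of arginine and other cationic amino acids, rose from 19.1, 23.7 and 22.4 CPM at 0 h to 31.2, 37.7 and 37.5 at 6 h (0.71 ± 0.10, adjusted p = 7.92e-05; 0.47 with length and GC trends removed) and returned to 24.5, 25.4 and 23.5 at 12 h, which overlapped 0 h. Its 24 h value of 0.38 ± 0.11 (adjusted p = 0.00962) was not called with length and GC trends removed (0.10), nor without replicate 1 at 0 h or replicate 2 at 24 h. All 5 members of the SLC7 family fell from 6 h to 12 h, beside 11.9% of all genes lower.

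SLC43A1, a facilitator of leucine, phenylalanine and methionine, was the only member called at 4 of the 5 times against 0 h, each time lower. At 0 h it measured 17.4, 16.6 and 15.6 CPM, and after 1 h 14.4 and 15.3. After 3 h it measured 12, 14.1 and 11.3, then 11.6, 10 and 10.7 by 6 h. The 12 h libraries held 14.9, 13.6 and 11.8 and the 24 h libraries 10.4, 10.6 and 10.7. Every later library lay below every 0 h library. The falls were 0.41 ± 0.10 at 3 h (adjusted p = 0.00847), 0.62 ± 0.10 at 6 h (adjusted p = 0.000199) and 0.65 ± 0.10 at 24 h (adjusted p = 0.000115). The fall of 0.31 ± 0.10 at 12 h (adjusted p = 0.0432) was not called without replicate 1 or 2 at 0 h or replicate 2 or 3 at 12 h. DESeq2, library size as the only scaling, no filter on low counts and only the 2 groups compared did not call it either. SLC1A4, an exchanger of alanine, serine and cysteine, fell by 0.54 ± 0.12 at 3 h (adjusted p = 0.00329), from 10.8, 13.4 and 12.5 CPM to 8.01, 8.39 and 8.82. SLC1A5, the glutamine exchanger, was at 293, 310 and 287 CPM at 0 h and at 259, 243 and 243 at 24 h, lower by 0.25 ± 0.05 (adjusted p = 0.00156; -0.16 with the trends removed) with no overlap. None of its counts were whole.

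A list of 9 amino acid transporter genes that have been linked to ATF4 held SLC7A11, SLC7A5, SLC3A2, SLC7A1, SLC38A2, SLC1A5, SLC1A4, SLC6A9 and SLC43A1. Of them SLC7A11, SLC7A1, SLC38A2 and SLC6A9 fall outside the naming rule. Of the 9, 1 was higher and 4 lower at 3 h, whereas 3 were higher and 1 lower at 6 h. By 12 h 2 were higher against 1 lower, and by 24 h 1 against 3. Higher against lower, all genes stood at 9.04% against 8.71% (3 h) and 16.9% against 13.2% (6 h). They stood at 5.96% against 6.48% (12 h) and 18% against 17.1% (24 h). The list's medians at 3, 6, 12 and 24 h were -0.18, 0.18, 0.04 and -0.08, beside medians of all genes between -0.02 and 0. From 3 h to 6 h 7 of the 9 rose and 0 fell, with a median of 0.29 beside -0.02 for all genes tested, of which 22.9% rose. Among genes with a mean count of at least 100, 31.5% rose. Removal of length and GC trends left 6 that rose and 0 that fell over this step, and a median of 0.16. It gave 3 higher and 4 lower at 3 h, and a median of 0.08 at 6 h. SLC38A2, which takes up small neutral amino acids with sodium, gave 221, 220 and 234 CPM in the 0 h libraries, 164, 149 and 179 in those of 3 h, and 244, 256 and 261 in those of 6 h. Its 3 h libraries lay below all others, a fall of 0.45 ± 0.07 (adjusted p = 0.000271) followed by a rise of 0.63 ± 0.07 to 6 h (adjusted p = 7.45e-06). At 24 h it was higher by 0.24 ± 0.07 (adjusted p = 0.0139; 0.14 with the trends removed), a call lost without replicate 1 at 0 h or replicate 2 or 3 at 24 h. SLC7A11, the cystine-glutamate exchanger, was at 40.9, 46 and 47.4 CPM at 0 h and 44.9, 61.6 and 59.4 at 6 h, with overlap (0.31 ± 0.13, adjusted p = 0.0897, and 0.04 with the trends removed). Its rise of 0.48 ± 0.13 from 3 h to 6 h (adjusted p = 0.00813) was not called with length and GC trends removed (0.11). SLC7A1, the arginine carrier, rose by 0.48 ± 0.08 at 6 h (adjusted p = 0.000174; 0.30 with the trends removed). ATF4 itself averaged 341 ± 22.5 CPM at 0 h and 336 ± 20.4 at 6 h, against 229 ± 21.2 at 24 h (SD, n = 3). It was lower by 0.57 ± 0.07 at 24 h (adjusted p = 1.44e-05).

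**Figure D4:**
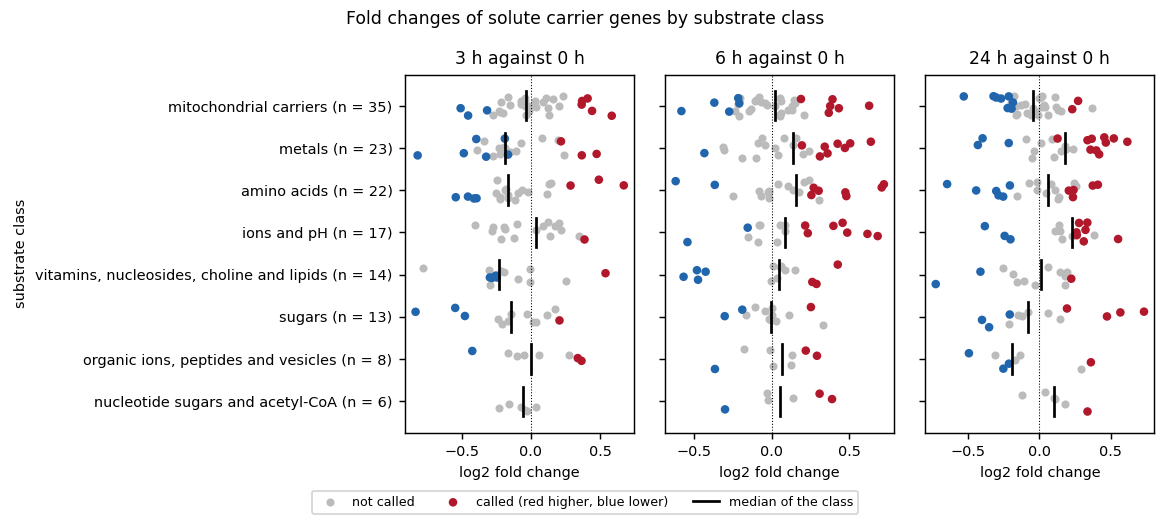
Log2 fold change against 0 h (horizontal axis) of the members at 3, 6 and 24 h, 1 point per gene, by substrate class (rows, classes of 6 or more members), red or blue where called and grey where not, with a black bar at the class median. The metal class has medians of -0.19, 0.14 and 0.18 at the 3 times (-0.14, 0.02 and 0.13 with length and GC trends removed, not drawn), and the mitochondrial carriers stay between -0.05 and 0.02.

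Mitochondrial carriers (SLC25), which move metabolites, nucleotides and metals across the inner mitochondrial membrane, were the largest class with 35 members. At 3 h 5 were higher and 3 lower (all genes 9.04% and 8.71%), whereas 6 were higher and 5 lower at 6 h (16.9% and 13.2%). By 12 h 0 were higher against 3 lower, and by 24 h 2 against 8, beside 5.96% and 6.48% of all genes at 12 h and 18% and 17.1% at 24 h. Removing length and GC trends gave 0 against 1 at 12 h, 2 against 5 at 24 h, and 8 against 4 at 6 h. The class medians were -0.03, 0.02, -0.09 and -0.05 at these times. The 2 mitoferrins, which bring iron into mitochondria for haem and iron-sulfur clusters, both peaked at 3 h. SLC25A28, mitoferrin 2, gave 34.7, 29.3 and 30.2 CPM in the 0 h libraries and 48.2, 49.5 and 43.5 in those of 3 h. It gave 34.9, 28.9 and 33.8 in those of 6 h and 29, 26.3 and 22.8 in those of 24 h. SLC25A37, mitoferrin 1, chosen after its values were seen, gave 151, 135 and 138 CPM in the 0 h libraries and 194, 202 and 180 in those of 3 h, then 162, 151 and 155 (6 h) and 126, 125 and 122 (24 h). For both genes the 3 h libraries lay above all others. The rises at 3 h were 0.58 ± 0.09 (adjusted p = 0.000247) for SLC25A28 and 0.44 ± 0.07 (adjusted p = 0.000156) for SLC25A37, and the falls from 3 h to 6 h were 0.53 ± 0.09 and 0.30 ± 0.07, the second being -0.48 with the trends removed. At 24 h both were lower than at 0 h, SLC25A28 by 0.27 ± 0.09 (adjusted p = 0.033) and SLC25A37 by 0.19 ± 0.07 (adjusted p = 0.0366; -0.34 with the trends removed). Both of these calls were lost with library size as the only scaling, with averaged replicates, and without replicate 1 at 0 h or replicate 2 or 3 at 24 h. The first was also lost with the trends removed and the second with no filter on low counts.

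Other carriers of the class differed in time. SLC25A24, a calcium-regulated carrier of ATP-magnesium and phosphate, gave 82.3, 94.7 and 101 CPM in the 0 h libraries and 81.9, 67.9 and 91.5 in those of 3 h, but 127, 149 and 153 in those of 6 h. Its 6 h libraries lay above all others, except that 1 at 24 h fell among them. It rose by 0.63 ± 0.15 at 6 h (adjusted p = 0.00566) and by 0.83 ± 0.15 from 3 h to 6 h. SLC25A25, a second such carrier outside the naming rule, rose by 0.37 ± 0.08 at both 3 h (adjusted p = 0.00372) and 6 h (adjusted p = 0.00208). Neither had whole counts in any library. SLC25A42, which carries coenzyme A, fell by 0.51 ± 0.13 at 3 h (adjusted p = 0.011) and 0.58 ± 0.13 at 6 h (adjusted p = 0.00225), from 7.59, 8.04 and 8.09 CPM to 4.74, 5.64 and 5.45 at 6 h. SLC25A10, the dicarboxylate carrier, fell by 0.37 ± 0.09 at 6 h (adjusted p = 0.00663) and 0.48 ± 0.09 at 12 h (adjusted p = 0.00288), or by 0.20 and 0.27 with length and GC trends removed. Of the most abundant carriers, SLC25A3 ran from 603 to 759 CPM over the 17 libraries and SLC25A5 from 411 to 467, and neither was called against 0 h. SLC25A39, which carries glutathione into mitochondria, was lower by 0.30 ± 0.08 at 24 h (adjusted p = 0.0057), a call lost with length and GC trends removed (-0.10).

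Carriers of inorganic ions numbered 17. Of these, 1 was higher and 0 lower at 3 h, whereas 7 were higher and 2 lower at 6 h. By 12 h 1 was higher against 2 lower, and by 24 h 7 against 3. The shares of all genes were 9.04% against 8.71% (3 h), 16.9% against 13.2% (6 h), 5.96% against 6.48% (12 h) and 18% against 17.1% (24 h). Trend removal gave this class 4 higher against 2 lower (3 h), 6 against 3 (6 h) and 5 against 2 (24 h). SLC4A7, a sodium-bicarbonate cotransporter that loads base into breast cancer cells, gave 26.4, 24.2 and 27.9 CPM in the 0 h libraries and 36.3, 30.5 and 33.1 in those of 3 h. It gave 37.9, 42.8 and 45.3 in those of 6 h, then 24.2, 29.3 and 23.9 (12 h) and 20, 34 and 32.5 (24 h). The 6 h libraries were the highest, and the 24 h libraries were spread over both sides of the 0 h ones. It rose by 0.68 ± 0.15 at 6 h (adjusted p = 0.00309) and fell by 0.70 ± 0.15 from 6 h to 12 h (adjusted p = 0.00335). SLC12A2, the sodium-potassium-chloride cotransporter that brings chloride in, rose by 0.62 ± 0.15 at 6 h (adjusted p = 0.00525; 0.41 with length and GC trends removed), from 12.8, 15.4 and 14.7 CPM to 16.9, 25.5 and 23.5.

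The potassium-chloride cotransporters SLC12A4 and SLC12A7 carry chloride out of the cell. SLC12A4 gave 54.3, 54.9 and 50.2 CPM in the 0 h libraries, 69.6, 77.3 and 60.9 in those of 3 h and 42, 40.7 and 40.1 in those of 12 h. The first 2 groups did not overlap, nor did the 12 h libraries overlap either. It rose by 0.38 ± 0.08 at 3 h (adjusted p = 0.00205) and fell by 0.38 ± 0.08 at 12 h (adjusted p = 0.0037). SLC12A7, outside the naming rule, rose by 0.49 ± 0.07 at 6 h (adjusted p = 0.00011). Counts were not whole in 16 libraries for SLC12A4. SLC20A1, a sodium-phosphate cotransporter, stepped up between 6 h and 12 h. Its CPM were 258, 264 and 256 in the 0 h libraries and 253 and 257 after 1 h. The 3 h libraries followed with 263, 261 and 272 and the 6 h libraries with 223, 239 and 237. At 12 h the values were 327, 338 and 305, and by 24 h 320, 332 and 313. Every library at 12 h and 24 h lay above every earlier one, with rises over 0 h of 0.32 ± 0.05 at 12 h (adjusted p = 0.00051) and 0.31 ± 0.05 at 24 h (adjusted p = 0.000203; 0.20 with length and GC trends removed). At 6 h it was lower by 0.16 ± 0.05 (adjusted p = 0.0291), or by 0.26 with the trends removed. This call was lost without replicate 1 or 2 at 0 h and without replicate 1 or 3 at 6 h. SLC12A8, whose substrates are debated, fell by 0.54 ± 0.11 at 6 h (adjusted p = 0.00138) and then, between 12 h and 24 h, rose by 0.56 ± 0.11 (adjusted p = 0.00277). SLC26A6, an anion exchanger, was lower by 0.38 ± 0.12 at 24 h (adjusted p = 0.0174), a call lost without replicate 1 at 0 h or replicate 2 at 24 h.

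The 14 carriers of vitamins, nucleosides, choline and lipids were split. At 3 h 1 was higher and 4 lower, whereas 3 were higher and 4 lower at 6 h. By 12 h 0 were higher against 2 lower, and by 24 h 1 against 2, where 18% and 17.1% of all genes were called. The earlier shares of all genes were 9.04% and 8.71% (3 h), 16.9% and 13.2% (6 h), and 5.96% and 6.48% (12 h). Without length and GC trends 4 were lower at 12 h against 1 higher. SLC19A2, a thiamine transporter, rose from 18.7, 20.2 and 20.9 CPM at 0 h to 27.8, 26.9 and 32.1 at 3 h (0.54 ± 0.09, adjusted p = 0.000468) and 24.8, 28.1 and 27.6 at 6 h (0.43 ± 0.09, adjusted p = 0.00185), without overlap. SLC29A1, the equilibrative nucleoside transporter that also takes up nucleoside drugs, was at 164, 166 and 182 CPM at 3 h and at 238, 261 and 262 at 6 h, a rise of 0.57 ± 0.08 (adjusted p = 3.56e-05), with 179, 230 and 215 at 0 h overlapping the first of these. SLC29A2, its paralogue, fell by 0.48 ± 0.11 at 6 h (adjusted p = 0.00238), where SLC29A1 was higher by 0.29 ± 0.08 (adjusted p = 0.00831; lost without replicate 1 at 0 h). SLC27A3, an acyl-CoA synthetase of the fatty acid transport family, gave 7.53, 7.91 and 9.02 CPM in the 0 h libraries, 6.26, 4.71 and 5.5 in those of 6 h and 4.74, 4.77 and 5.27 in those of 24 h. It fell by 0.57 ± 0.12 at 6 h (adjusted p = 0.00177) and by 0.73 ± 0.12 at 24 h (adjusted p = 0.000227), the largest called fall of a member at that time. Its counts and those of SLC29A2 were whole in no library.

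SLC19A1, the reduced folate carrier, is named after its values were seen. It had the widest range of mean levels of any member, and 1 library sets that range; it was not called over all times (adjusted p = 0.317). The 0 h libraries held 253, 336 and 287 counts of it and the 1 h libraries 280 and 22. Those of 3 h held 173, 86 and 169, and there were between 227 and 443 in the 9 later libraries. Replicate 2 at 1 h stood far below replicate 1, and replicate 2 at 3 h was the next lowest. The change was -0.90 at 1 h (adjusted p = 0.987), and it was called without replicate 1 at 1 h (-3.62, adjusted p = 0.00164) and with no filter on low counts (-0.91, adjusted p = 1.3e-09). The gene overlaps COL18A1 on the opposite strand over 20149 bases, and its counts were not whole in 16 libraries.

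Of the 8 carriers of organic ions, peptides and vesicle contents, 2 were higher and 1 lower at 3 h, with the same counts at 6 h. By 12 h 0 were higher against 1 lower, and by 24 h 1 against 3, beside 18% and 17.1% of all genes. The earlier shares of all genes were 9.04% and 8.71% (3 h), 16.9% and 13.2% (6 h), and 5.96% and 6.48% (12 h). Trend removal gave 3 against 2 at 3 h, 1 against 1 at 6 h and 2 against 3 at 24 h. SLC22A3, an organic cation transporter, gave 11, 10.3 and 10.6 CPM in the 0 h libraries and 11.8, 14.1 and 12.8 in those of 3 h. It gave 8.21, 7.76 and 8.74 in those of 6 h, then 8.3, 8.13 and 6.89 (12 h) and 7.14, 8.37 and 7.14 (24 h). All libraries from 6 h on lay below all the 0 h, 1 h and 3 h ones. Between 3 h and 6 h it fell by 0.65 ± 0.11 (adjusted p = 0.000172). It was lower than at 0 h by 0.46 ± 0.11 at 12 h (adjusted p = 0.00991) and by 0.50 ± 0.11 at 24 h (adjusted p = 0.00207). SLC22A5, the carnitine transporter, rose by 0.37 ± 0.09 at 3 h (adjusted p = 0.0118). SLC17A5, the sialic acid exporter of lysosomes, gave 36.1, 36.7 and 41.9 CPM in the 0 h libraries, 28, 23.9 and 33.6 in those of 3 h and 51.7, 51.1 and 44.6 in those of 24 h. It was lower by 0.42 ± 0.10 at 3 h (adjusted p = 0.00865; lost without replicate 3 at 0 h or replicate 2 at 3 h) and rose by 0.36 ± 0.10 at 24 h (adjusted p = 0.00812; 0.22 with length and GC trends removed).

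The 6 members of the families that load nucleotide sugars or acetyl-CoA into the Golgi apparatus and endoplasmic reticulum included 2 that moved in opposite directions from 3 h to 6 h. SLC35A1, the CMP-sialic acid carrier, gave 12.8, 14.3 and 15.3 CPM in the 3 h libraries, 11, 10.6 and 11.8 in those of 6 h and 16.1, 15.3 and 15 in those of 12 h. It fell by 0.34 ± 0.09 over the first step (adjusted p = 0.00542) and rose by 0.47 ± 0.09 over the next (adjusted p = 0.000927). SLC35A3, the carrier of UDP-N-acetylglucosamine, gave 25.3, 19.2 and 25 CPM in the 3 h libraries, 30.5, 32 and 33.2 in those of 6 h and 23, 26.1 and 21.5 in those of 12 h. It rose by 0.46 ± 0.11 over the first step (adjusted p = 0.00304) and fell by 0.44 ± 0.11 over the next (adjusted p = 0.0091), its counts being whole in no library. Within each gene the 6 h libraries overlapped neither neighbour in time. SLC35A5 was higher by 0.33 ± 0.10 at 24 h (adjusted p = 0.0163), a call lost without replicate 1 or 2 at 0 h or replicate 2 at 24 h.

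A list of 20 genes outside the family held chaperones, kinases, pumps and regulators that work with these carriers or set their level. Of these, 1 was higher and 2 lower at 3 h, and 5 moved each way at 6 h. By 12 h 1 was higher against 0 lower, and by 24 h 5 against 6. Higher against lower, all genes stood at 9.04% against 8.71% (3 h) and 16.9% against 13.2% (6 h). They stood at 5.96% against 6.48% (12 h) and 18% against 17.1% (24 h). Trend removal gave 1 higher against 4 lower (3 h), 3 against 4 (6 h), 4 against 1 (12 h) and 7 against 5 (24 h). TXNIP, which brings about the removal of glucose transporters from the cell surface, was at 420 ± 15.4 CPM at 0 h and 574 ± 10.2 at 6 h (SD, n = 3), a rise of 0.45 ± 0.06 (adjusted p = 2.02e-05). It was higher by 0.24 ± 0.06 at 12 h (adjusted p = 0.0102) and lower by 0.18 ± 0.06 at 24 h (adjusted p = 0.0187). BSG, the chaperone of SLC16A3, fell by 0.27 ± 0.07 at 6 h (adjusted p = 0.00728) and by 0.31 ± 0.07 at 24 h (adjusted p = 0.00282). OXSR1, a kinase that activates SLC12A2 and inhibits potassium-chloride cotransporters, rose by 0.39 ± 0.06 at 6 h (adjusted p = 0.000182) and by 0.36 ± 0.06 at 24 h (adjusted p = 0.000302). ARL6IP5, which restrains the glutamate transporter SLC1A1, fell by 0.54 ± 0.06 at 3 h (adjusted p = 6.76e-06) and 0.22 ± 0.06 at 6 h (adjusted p = 0.0107), and was higher by 0.28 ± 0.06 at 24 h (adjusted p = 0.00159).

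The members' changes moved with transcript length. Across the 140 genes, Pearson's r between log2 fold change and the log2 of the median transcript length was 0.41 at 6 h, 0.42 at 24 h and 0.38 from 3 h to 6 h, and -0.06 at 3 h; over all genes tested it was 0.24, 0.28, 0.32 and -0.14. These are correlations across genes of the same libraries, given as descriptions. The members' median transcript length was 2838.25 bases beside 2334 for all genes tested with a length. Once each library's trend with length and GC content was removed, r among the members was 0.02 at 6 h, -0.03 at 24 h and -0.04 from 3 h to 6 h, and 32 members were lower at 3 h. Such low r follow from the method, which fits and subtracts the trend with length, and are no result about the members. The 24 h rise of SLC5A3, the longest transcript of the members, went from 0.57 to 0.26, that of SLC41A2 from 0.52 to 0.36, while that of SLC2A3 went from 0.74 to 0.57, and SLC7A5 at 6 h went from 0.72 to 0.67. What part the library trends or the mitochondrial share had in the members' changes was not tested.

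**Figure D5:**
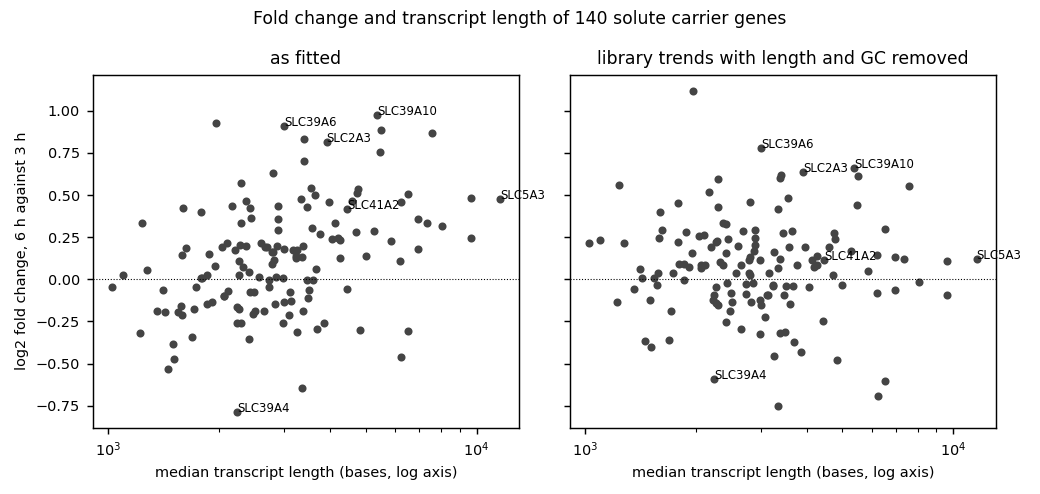
Log2 fold change from 3 h to 6 h (vertical axis) against median transcript length in bases (horizontal log axis) of the 140 members, as fitted (left) and with each library's trend with length and GC content removed (right). The upward tilt on the left (r of 0.38) is absent on the right (r of -0.04), where SLC39A6 (0.78), SLC39A10 (0.66) and SLC2A3 (0.64) lie high, below the uncalled SLC19A1 (1.12). The removal fits the trend with length itself, so the low r on the right follows from the method.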

How the data were processed

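RNA from MDA-MB-231 cells was sequenced as stranded, paired-end mRNA libraries in 17 samples. The deposited table holds expected counts per gene, which the authors estimated with RSEM per the file name; per the submitters' processing notes reads were trimmed with cutadapt 1.18 and aligned with STAR 2.7.0f to hg38, and the annotation, the RSEM version and whether counting used strand are not given in the sources used here. Of the values, 10.84% were not whole, and all were rounded. No column lacked a sample (0). Genes passing edgeR's default expression filter, 15365 of 58870, were fitted in edgeR 4.0.16 (R 4.3.3) with TMM scaling (factors 0.939 to 1.06) and 1 quasi-likelihood model over all 6 times. Benjamini-Hochberg adjustment ran over all genes tested. All 140 members passed the filter. Levels per length used GENCODE 29 median transcript lengths, matched for 140 members. The biological coefficient of variation, shared over genes, came to 7.06%. The scripts were tested on simulated counts with known changes. Totals of 13731520 to 19234924 counts limit precision for the members of lowest count.

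Members and lists were chosen with earlier results of these data known. Named members were the 4 with the largest calls per direction and time against 0 h, the 10 of largest range with a call over all times, the 8 of highest level per length, and 2 per class and direction. Some genes that the rule named are not reported here. Exceptions are marked in the text: SLC37A2, SLC30A1, SLC41A1, SLC25A37, SLC25A25, SLC12A7, SLC19A1, SLC39A8, the SLC30 genes and the members of the ATF4-linked list were named for their role or after their values were seen. Alternatives were DESeq2 1.42.0, other scalings and filters, 2 groups at a time, a replicate block, averaged close replicates, removal of length and GC trends, and each library left out.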

Additional observations from a re-analysis of the deposited data

How the results depend on the processing

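Of the calls against 0 h, 19 of 37 at 3 h, 29 of 55 at 6 h, 7 of 19 at 12 h and 22 of 60 at 24 h were made under every alternative and without each library, as were 43 of 72 from 3 h to 6 h. With library size as the only scaling 40 members were lower at 3 h, 7 lower at 12 h, 47 higher and 12 lower at 24 h, 13 lower from 3 h to 6 h and 5 lower from 12 h to 24 h. With replicates 2 and 3 averaged at 6 h and 24 h, 20 members were higher at 6 h and 4 at 12 h, while 18 were higher and 14 lower at 24 h, 6 higher and 17 lower from 6 h to 12 h, and 5 higher and 4 lower from 12 h to 24 h. With no filter 1 was lower at 1 h, 7 higher from 1 h to 3 h, 8 higher from 6 h to 12 h and 17 higher from 12 h to 24 h. With only the 2 groups compared, 4 were higher and 3 lower from 1 h to 3 h and 6 lower from 12 h to 24 h. DESeq2 gave 7 higher from 6 h to 12 h, and removing length and GC trends gave 32 lower at 3 h. The causes were not tested.

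Leaving out each library in turn, members higher ran from 0 to 0 at 1 h, 11 to 19 at 3 h, 22 to 36 at 6 h, 3 to 6 at 12 h, 19 to 41 at 24 h, 2 to 9 from 1 h to 3 h, 42 to 53 from 3 h to 6 h, 5 to 9 from 6 h to 12 h and 5 to 20 from 12 h to 24 h. Members lower ran from 0 to 1, 10 to 25, 12 to 19, 4 to 10, 11 to 28, 0 to 5, 13 to 25, 18 to 30 and 5 to 7 in the same order, and those changed over all times from 106 to 114. Signs turned with trends removed for SLC16A3 at 24 h (0.0115) and SLC25A39 from 3 h to 6 h (0.0103), and for the uncalled 24 h value of SLC7A5 with library size only (0.0548), without replicate 2 at 0 h (0.019) and without replicate 1 at 24 h (0.0153), its range without single libraries being -0.0535 to 0.019. The uncalled 24 h value of SLC39A8 turned to 0.0264 with library size only, and ran from -0.133 to 0.00317 without single libraries, turning without replicate 3 at 0 h.

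Whether the replicate numbers pair the libraries was not settled. Over 40 same-numbered pairs the correlation of deviations from the group means ran from -0.199 to 0.211, with a median of 0.0108 and 8 above 0.1. Over 80 differently numbered pairs it ran from -0.163 to 0.199, with a median of -0.00865 and 14 above 0.1. Of the 17 libraries 10 correlated best with their own number, a hint from the data and not the design. With the replicate number as a block, the higher-to-lower split of members was 16 to 24 (3 h), 35 to 18 (6 h), 8 to 9 (12 h) and 30 to 28 (24 h), 9 and 6 from 1 h to 3 h, 52 and 21 from 3 h to 6 h, 12 and 31 from 6 h to 12 h, 12 and 10 from 12 h to 24 h, and 113 over all times. Depth limits members near the count minimum most.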

Other observations

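Solute carriers whose symbols do not follow the pattern, such as SLCO genes and lettered SLC35 genes, gave 22 genes with a mean count of at least 100. Of these, 0 were higher and 2 lower at 3 h, whereas 4 were higher and 3 lower at 6 h. By 12 h 0 were higher against 1 lower, and by 24 h 6 against 3, beside 18% and 17.1% of all genes. The earlier shares of all genes were 9.04% and 8.71% (3 h), 16.9% and 13.2% (6 h), and 5.96% and 6.48% (12 h). Over the step from 3 h to 6 h 9 rose and 2 fell, beside 22.9% and 20.3% of all genes. SLCO4A1, an organic anion transporter that carries thyroid hormone, averaged 17.8 ± 0.684 CPM in the 0 h libraries and 12.5 ± 0.713 in those of 3 h. It averaged 10.9 ± 0.849 in those of 6 h, then 16.7 ± 1.21 (12 h) and 23.6 ± 2.3 (24 h; SD, n = 3). It fell by 0.71 ± 0.09 at 6 h (adjusted p = 2.69e-05) and rose by 0.41 ± 0.09 at 24 h (adjusted p = 0.00149). SLC35D1, which carries UDP-glucuronic acid into the endoplasmic reticulum, rose by 0.44 ± 0.12 at 6 h (adjusted p = 0.00737) and by 0.50 ± 0.12 at 24 h (adjusted p = 0.00265). SLC35F2 fell by 0.29 ± 0.05 at 24 h (adjusted p = 0.000621). These 3 were named after their values were seen.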
